A study of Mus musculus with 12 samples.

Results

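The regions described here lie on mouse chromosome 1 between 125.0 and 165.0 Mb (mm10), a stretch of 40.0 Mb around Ptprc (chr1:138062859-138175756), the gene for the leukocyte surface phosphatase CD45. Chromatin accessibility had been mapped by ATAC-seq, in which a transposase cuts open DNA, and each library came as a list of peaks. Overlapping peaks, by 1 bp or more, were joined across the 12 libraries, and joined regions lying wholly inside the stretch were kept. This gave 1555 of 76882 regions, beside 3766 on the rest of chromosome 1. The regions were chosen by position, and the stretch itself was selected on the presence of peaks in donor against host libraries, known from earlier results, so those differences are described below without a test. The lowest region inside the bounds, chr1:125370835-125371136, had a peak in 5 libraries, and the nearest below, chr1:122357128-122357283, had one in 2. At the upper bound the last region inside, chr1:164999576-164999810, had a peak in 9 libraries, and the next outside, chr1:165011151-165011553, had one in 8.

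All cells were CD3+CD4+ T cells of mice labelled Balb/c, in 6 groups of 2 libraries. CD4 T cells carrying the 6.5TCR transgene, a receptor for the influenza hemagglutinin (HA), had been given to Aire-HA hosts, and bone marrow subsets were sorted 14 days later. Donor Tconv were transferred cells that had not converted to regulatory T cells (CD45.1-CD45.2+, CD25-), and donor Treg were those that had (CD45.1-CD45.2+, CD25+LAP+, LAP being the latent peptide of TGF-beta). Host Tconv were conventional cells sorted as CD45.1+CD45.2-CD25-, called wild type in the title and Aire-HCO in the description. Host pTreg (Nrp1-) and host tTreg (Nrp1+) were CD25+CTLA4+ and are labelled as positive for both CD45.1 and CD45.2. The iTreg were regulatory cells induced in culture from wild-type Balb/c cells; their sorting markers are CD25+LAP+ with no CD45 allele, and their description names CD45-2Pos. No label gives an age, ties replicates to separate animals, or says how the CD45.1 allele was brought into the host strain. Donor Tconv, donor Treg and host Tconv share the run code BW13 in their library names, host pTreg and host tTreg carry DR31, and iTreg carry none.

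CD45 removes phosphate groups from the Src-family kinases, Lck above all in T cells, and so sets how readily the T cell receptor signals. Its alleles CD45.1 and CD45.2 differ in surface epitopes that antibodies tell apart, which makes them the usual marks of host and donor blood cells after a transfer. A congenic mouse bred for one of these alleles keeps a flanking piece of the source strain's chromosome, whose length depends on the breeding. Open regions near genes are mostly promoters and enhancers, where transcription factors bind.

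The windows of 250 bases upstream of 3 start sites are shown because they hold the clearest cases of sharing and of difference near a start site. That of Ptprc (chr1:138175306-138175555, minus strand) lies in a region with a peak in all 12 libraries. Those of Kdm5b, which encodes a histone H3K4 demethylase (chr1:134559928-134560177, plus strand), and Chit1, which encodes a chitinase (chr1:134110992-134111241, plus strand), lie in regions where both donor Tconv libraries had a peak and host Tconv had none. The sequences are RefSeq's for GRCm38.p6, which has the coordinates of mm10 and represents C57BL/6J, not Balb/c. They run 5′ to 3′ on the gene's strand and end at the base before the start site. Capitals mark bases covered by a peak in both donor Tconv libraries, which are 250 in Ptprc, 165 in Kdm5b and 190 in Chit1.
Ptprc: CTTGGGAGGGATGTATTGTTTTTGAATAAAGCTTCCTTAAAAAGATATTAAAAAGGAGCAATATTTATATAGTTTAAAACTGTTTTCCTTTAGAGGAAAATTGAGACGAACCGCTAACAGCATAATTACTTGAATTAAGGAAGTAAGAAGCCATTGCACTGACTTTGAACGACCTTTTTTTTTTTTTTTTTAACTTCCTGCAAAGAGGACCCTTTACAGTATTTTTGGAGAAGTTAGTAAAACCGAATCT
Kdm5b: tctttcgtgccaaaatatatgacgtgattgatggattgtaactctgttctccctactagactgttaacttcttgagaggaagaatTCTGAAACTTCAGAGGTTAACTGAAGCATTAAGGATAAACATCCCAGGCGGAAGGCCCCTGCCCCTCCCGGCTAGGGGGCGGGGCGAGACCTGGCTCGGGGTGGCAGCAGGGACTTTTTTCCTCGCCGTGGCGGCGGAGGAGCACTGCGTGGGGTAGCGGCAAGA
Chit1: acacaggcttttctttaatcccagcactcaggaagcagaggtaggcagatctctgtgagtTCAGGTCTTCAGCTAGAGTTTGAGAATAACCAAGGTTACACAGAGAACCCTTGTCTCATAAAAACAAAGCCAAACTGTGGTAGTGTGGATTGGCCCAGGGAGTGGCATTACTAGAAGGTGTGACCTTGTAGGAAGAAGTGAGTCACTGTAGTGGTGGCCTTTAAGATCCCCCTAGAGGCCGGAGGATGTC
Peaks at the Kdm5b window were 1289 and 1288 bp wide in donor Tconv, 1064 and 1178 bp in donor Treg, 1167 and 998 bp in host pTreg, 984 and 1103 bp in host tTreg and 1388 bp in iTreg 1. No peak was listed there in host Tconv 1, host Tconv 2 or iTreg 2. The 2 host Tconv libraries thus lacked a peak that the 4 host regulatory libraries carried at nearly the width seen in donor cells. The Chit1 peaks were narrower, 334 and 253 bp in donor Tconv, 191 and 203 bp in donor Treg, 350 and 427 bp in iTreg, 150 and 225 bp in host pTreg and 232 bp in host tTreg 2, with none in host Tconv or host tTreg 1. Of 495 such windows in the stretch, 172 met a region present in all 12 libraries and 268 met no region. A region of donor Tconv and not host Tconv was met by 5, and the reverse by 0. Windows elsewhere in the genome were not counted, so these counts are no result about the stretch.

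Lists held 28394 to 63207 peaks each. Read depth was not given in the sources used here, so the absence of a peak does not show closed chromatin, and a bulk library cannot tell fewer cells with an open region from less opening per cell. All 12 lists had a peak within 1 kb of the start sites of Cd3e, Cd3g, Cd3d, Lck and Cd5, and 0 had one at Cd8a, Cd79a, Ncr1 or Klrb1c, which mark CD8 T, B and NK cells. Gene bodies gave a less uniform picture of other cell types: Cd79a had a region with a peak in all 12 libraries, Cd8a in both Tconv groups and iTreg, Cd8b1 in every library but host tTreg 1, and Klrb1c in 5 in vivo regulatory libraries. Bodies of Spi1, a myeloid and B cell factor, held 2 to 4 such regions per library, while those of Csf1r and Ncr1 held 0. At Itgam, a myeloid marker, both Tconv groups and iTreg had a start-site peak and the in vivo regulatory libraries had none; at Lyz2 the iTreg libraries alone had one, and at Klf1, an erythroid factor, all 12 did. In the body of Ikzf2, which encodes Helios, the in vivo regulatory libraries had 15 to 22 regions with a peak, conventional libraries 5 to 11 and iTreg 6 and 7. The Foxp3 body did not follow the sort: it had 4 such regions in each donor Tconv library, 2 in each host Tconv library and 1 to 3 in the regulatory libraries. The part of any other cells in what follows was not tested.

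The stretch made up a similar share of the regions of every library, but fewer of its regions than elsewhere were shared by all 12. The number with a peak was 865 and 798 in donor Tconv, 594 and 649 in donor Treg, 638 and 819 in host Tconv, 1110 and 1219 in iTreg, 707 and 600 in host pTreg, and 502 and 689 in host tTreg. The iTreg libraries had the most, the in vivo regulatory libraries overlapped with host Tconv 1, and the 2 host Tconv libraries differed more from each other than the donor Tconv libraries did. In every library these regions made up 1.79 to 1.99% of its regions. Of the 1555 regions, 366 (23.5%) had a peak in all 12 libraries, against 28.0% in the rest of the genome, and 250 (16.1%) had one in 1 library, against 14.8%.

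Ptprc itself was open in every group. Of 22 regions assigned to it, by a midpoint inside the gene or a gene end within 50 kb, 6 had a peak in all 12 libraries. The number with a peak was 17 and 15 in donor Tconv, 14 and 14 in donor Treg, 14 and 16 in host Tconv, 12 and 12 in iTreg, 12 and 12 in host pTreg, and 11 and 14 in host tTreg, so donor and host Tconv overlapped. Of the 14 regions that cross the gene body, 1 separated donor from host Tconv: chr1:138111483-138111767 had a peak in donor Tconv 1, donor Tconv 2 and donor Treg 2 and in no other library. The region over the start site (chr1:138173826-138176198) was covered for 2031 and 1885 bp in donor Tconv, 1260 and 2155 bp in host Tconv, 1607 and 1882 bp in donor Treg, 2259 and 2285 bp in iTreg, 1935 and 1223 bp in host pTreg and 809 and 1670 bp in host tTreg. Within the gene, chr1:138125280-138125666 was present in the 10 libraries other than iTreg, and chr1:138165675-138166835 in the 10 other than host pTreg. Ptpn7, which encodes another T cell phosphatase and lies 2.92 Mb away, had 2 regions, both present in all 12 libraries.

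Donor Tconv and host Tconv share cell state and run code and differ in CD45 allele, receptor transgene, transfer and origin, which cannot be told apart. Of 995 regions of the stretch with a peak in any of these 4 libraries, 79 (7.94%) had one in both donor and neither host library, where 4.4% did over the whole genome (percent of all regions tested) and 3.39% on the rest of chromosome 1. In the other direction 30 (3.02%) had a peak in both host and neither donor library, where 0.557% did over the whole genome and 0.454% on the rest of chromosome 1. The stretch held 30 of the 284 regions of this second kind in the genome. Over the other autosomes and X the share in host Tconv alone of the 2 groups ran from 0.209% on chromosome 15 to 1.18% on chromosome 19. The share in donor Tconv ran from 3.3% on chromosome 9 to 5.89% on chromosome 12. Similarity of the peak lists showed the same drop: the Jaccard index, shared regions over all regions of a pair of libraries, averaged 0.706 between donor and host Tconv in the stretch and 0.791 in the rest of the genome. That difference of -0.0852 was the largest of 21 pairings, replicates included. The next were all of host Tconv: -0.0667 with iTreg, -0.0651 with donor Treg, -0.0611 with host pTreg and -0.0513 with host tTreg. The 2 host tTreg libraries followed at -0.05, and the index was lower in the stretch in every pairing. The 2 host Tconv libraries themselves had an index of 0.739 in the stretch and 0.774 elsewhere.

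Both the counts and the size of the excess over the genome moved with the lists. Without host Tconv 2, donor-only regions numbered 182 (19.2%, genome 15.0%), without donor Tconv 2 they numbered 138 (14.1%, genome 10.1%), and without host Tconv 1, host-only regions numbered 82 (8.3%, genome 4.39%). With every list cut to the widest 28394 peaks, 28 regions (4.69%, genome 2.54%) were donor-only and 25 (4.19%, genome 2.04%) were host-only, and the imbalance between the directions was gone.

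**Figure D1:**
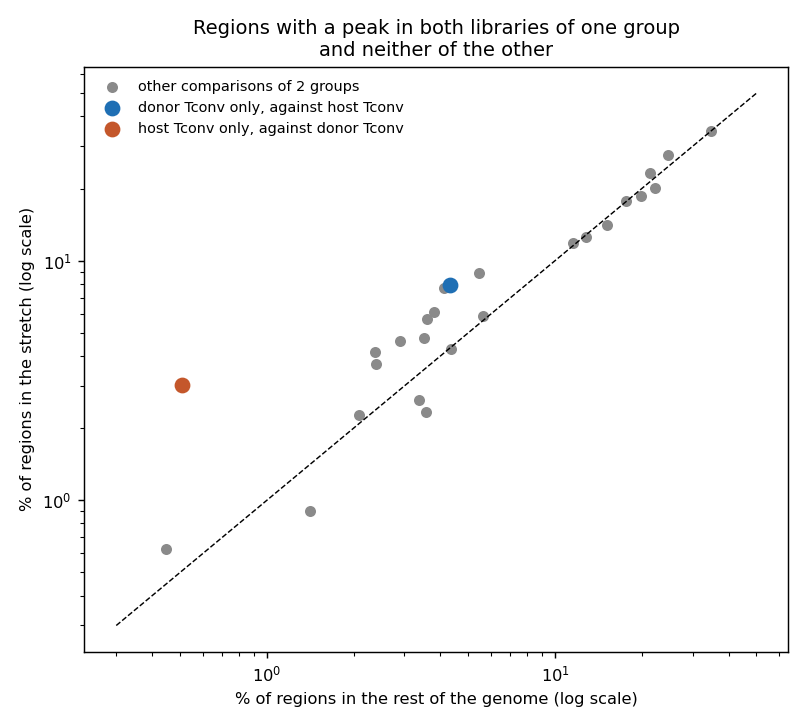
Each point is 1 direction of 1 comparison of 2 groups: the percent of regions that both libraries of one group carried and those of the other did not, in the rest of the genome (horizontal) and in the stretch (vertical), both on log scales, with the dashed line marking equal shares. Regions of host Tconv against donor Tconv stand farthest above the line (3.02% against 0.508%), and regions of donor Tconv against host Tconv lie at 7.94% against 4.33%.

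The 79 donor Tconv regions were spread over many genes, 15 of them unassigned. Nav1, which encodes a microtubule-binding protein, had 4 of its 26 regions in this set: chr1:135544710-135545232, chr1:135585003-135586048, chr1:135631350-135632145 and chr1:135687820-135688554. Its regions with a peak numbered 10 and 10 in donor Tconv, 2 and 5 in host Tconv, 5 and 8 in donor Treg, 23 and 23 in iTreg, 11 and 7 in host pTreg and 4 and 10 in host tTreg. Host Tconv 1 was the lowest library at Nav1. The donor and host Tconv ranges did not meet, which naming the gene for its donor-only regions favours. Nek7, the gene of a mitotic kinase that also serves the NLRP3 inflammasome, lies 0.308 Mb from Ptprc and had 3 donor-only and 2 host-only regions among 31. Regions of both directions also lay at Abl2, Rabgap1l, Dennd1b and Lgr6.

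Rgs2, which encodes a regulator that shortens G protein signalling, had 3 of its 8 regions in the donor Tconv set. One, chr1:144006320-144007049, 2535 bp from a start site, had a peak in both donor Tconv, both donor Treg and all 4 host regulatory libraries and in no host Tconv or iTreg library. The other 2, chr1:143982677-143983155 and chr1:143985103-143985368, had a peak in donor Tconv and iTreg 2 alone. Ppp1r12b, a myosin phosphatase subunit, Mgat4e, Sox13, a transcription factor of gamma delta T cells, Fcmr, the IgM receptor, Niban1, Abl2, a tyrosine kinase of the Abl family, and Mrps14, a mitochondrial ribosomal protein, had 2 each. The region over the Kdm5b start site shown above counts under Mgat4e, whose body overlaps it. At Fcmr, chr1:130878158-130878533 was present in the same 8 libraries as the first Rgs2 region, and chr1:130875249-130875474 in donor Tconv alone. Both Niban1 regions, chr1:151636652-151637163 and chr1:151689038-151689985, also had that pattern of 8 libraries.

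The 30 host Tconv regions lay at 22 genes, and 0 of them were unassigned, while the 64 assigned donor Tconv regions lay at 49. Tor1aip2, the gene of a torsin-interacting protein of the endoplasmic reticulum, had 3 of its 5 regions in this set: chr1:156042999-156043369, chr1:156066266-156066659 and chr1:156067321-156067642. Each had a peak in host Tconv 1 and host Tconv 2 and in none of the other 10 libraries. Its regions with a peak therefore numbered 4 and 5 in host Tconv and 1 in each other library. Next to it Fam163a (chr1:156076441-156076846 and chr1:156085885-156086178) had 2 that were shared with both iTreg libraries and no other. Tdrd5, a germ-line gene, Ren1, the renin gene, and Zp3r had 2 each, as did Rabgap1l, a Rab GTPase regulator, whose 2 regions (chr1:160268243-160268718 and chr1:160300031-160300354) were seen in host Tconv alone. At Nek7 the host-only pair was chr1:138666240-138666701, also present in host pTreg 1 and both host tTreg libraries, and chr1:138667485-138667892, in host Tconv alone. Dennd1b, which encodes a regulator of T cell receptor internalisation, Rnpep and Lgr6 had 1 each.

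**Figure D2:**
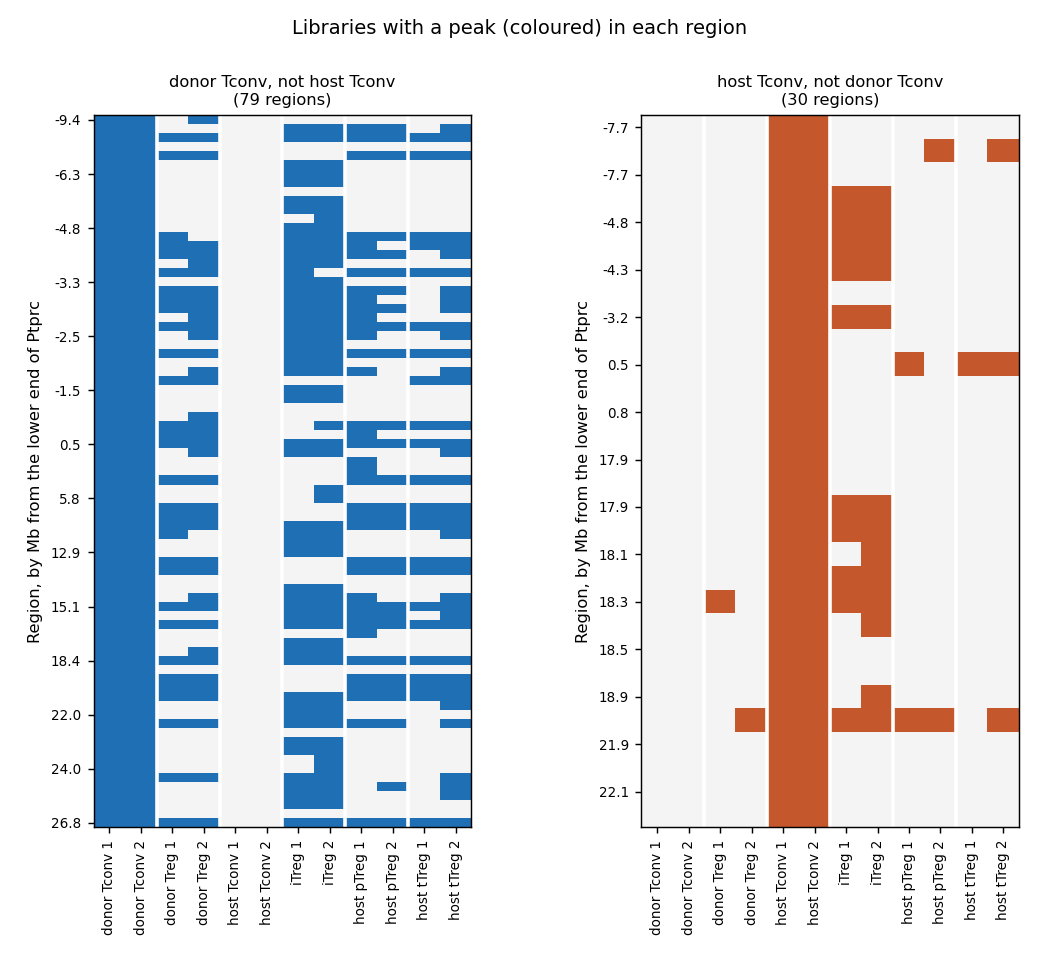
Rows are the 79 regions of donor Tconv and not host Tconv (left) and the 30 of host Tconv and not donor Tconv (right). They are ordered by position and labelled at intervals with the distance in Mb from the upper end of Ptprc. The axis title names the lower end, which is not the end used. Columns are the 12 libraries and coloured cells have a peak. The left set recurs in many regulatory columns, while the right set is nearly empty in the in vivo regulatory columns (1 to 3 regions each).

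The differing regions were neither confined to Ptprc nor spread evenly. Donor-only regions lay from 128.74 to 164.98 Mb and host-only regions from 130.46 to 161.24 Mb. Outside the stretch the nearest host-only regions on chromosome 1 were at 92.1 and 177.0 Mb. The nearest donor-only regions outside were at 106.15 and 165.01 Mb, with 24 in all above the upper bound. From 165 to 170 Mb, 3 of 92 regions were donor-only (3.26%), where 4.4% were over the whole genome. Donor-only regions thus occurred just past that bound, but at a share below the genome-wide one. In tiles of 5 Mb, that from 155 to 160 Mb held 13 host-only of 127 regions (10.2%). That share ranked 1 among the 376 tiles of the genome with at least 50 regions; the highest outside the stretch was 4.69%, and 217 tiles (57.7%) had none. The tiles from 130 to 135 Mb (8 of 211, 3.79%), 135 to 140 Mb (5 of 203, 2.46%) and 160 to 165 Mb (4 of 180, 2.22%) ranked 3, 8 and 14. Those from 125 to 130, 140 to 145 and 150 to 155 Mb held 0, and from 145 to 150 Mb there was 1 region in all. Within 1 Mb, from 156 to 157, lay 11 host-only and 5 donor-only of 70 regions, covering Tor1aip2, Fam163a, Tdrd5, Soat1, Abl2, Tor3a and Fam20b. Donor-only regions were most numerous in the tile that holds Ptprc, from 135 to 140 Mb (21 of 203, 10.3%, rank 12), and made up 7 of 43 regions (16.3%) from 140 to 145 Mb, a tile too sparse to be ranked.

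**Figure D3:**
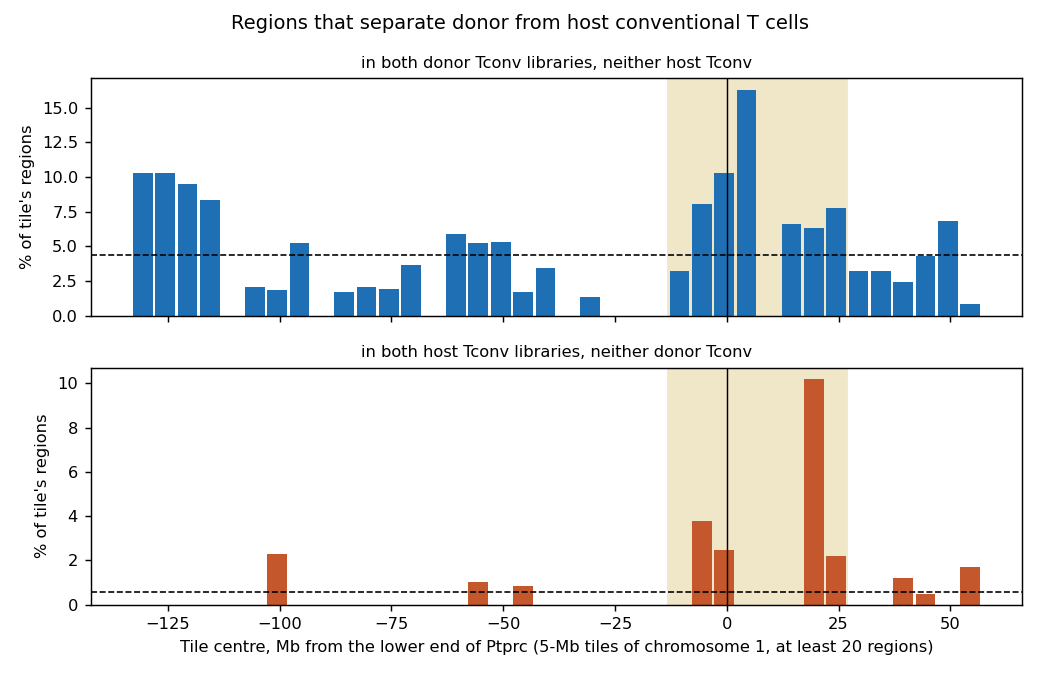
Bars give, for tiles of 5 Mb along chromosome 1 with at least 20 regions, the percent of regions in both donor and neither host Tconv library (top) and the reverse (bottom) by distance of the tile's centre from Ptprc in Mb; the shaded band is the stretch and the dashed line the genome-wide percent. The highest host-only bar, 10.2%, belongs to the tile from 155 to 160 Mb, and the 4 tiles of the stretch with a host-only region are all above the dashed line.

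Both sets were mostly distal, as the corresponding sets in the rest of the genome were. Of the donor-only regions 5 of 79 (6.33%) and of the host-only regions 0 of 30 lay within 1 kb of a start site in the RefSeq promoter table. The sets elsewhere had 4.44 and 5.91% there. Of all regions of the stretch 10.5% lay so near, and of those in all 12 libraries 29.2%. Median width of the merged region was 478 bp for the donor-only set and 407 bp for the host-only set, where the corresponding sets in the rest of the genome had 367 and 396.5 bp. A gene body held the midpoint of 50.6% of the donor-only and 70.0% of the host-only regions, close to the 46.7 and 70.5% of the sets elsewhere.

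The 8 regulatory libraries took no part in defining these sets and were used to follow them. The stretch itself was selected on donor against host libraries, regulatory ones among them. Its shares beside those elsewhere are therefore descriptions and no independent check. Of the 79 donor Tconv regions, donor Treg had a peak in 31 and 38, host pTreg in 37 and 28, host tTreg in 23 and 39, and iTreg in 51 and 56. Host regulatory cells thus carried these regions about as often as donor Treg did, and the ranges overlapped. Each of the 8 libraries exceeded its own share for the donor Tconv set elsewhere in the genome, for example 39.2% against 25.3% in donor Treg 1 and 49.4% against 31.9% in host tTreg 2. Regions with a peak in all 6 in vivo regulatory libraries numbered 20 (25.3%, elsewhere 12.9%), and those in no regulatory library 7 (8.86%, elsewhere 19.3%).

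The 30 host Tconv regions were rarely present in regulatory cells of either origin. Donor Treg had a peak in 1 and 1, host pTreg in 2 and 2, and host tTreg in 1 and 3, which is 3.33 to 10.0% where the set elsewhere gave 7.87 to 19.3%. In iTreg they numbered 10 and 13 (33.3 and 43.3%, elsewhere 42.1 and 46.5%). Sec16b (chr1:157554930-157555340) had the most, a peak in 6 of the 8 regulatory libraries. Of the 30, 15 were in no regulatory library, and 8 were in both iTreg and no in vivo regulatory library, at Mfsd4a, Ren1, Optc, Lgr6, Fam163a and Tdrd5.

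**Figure D4:**
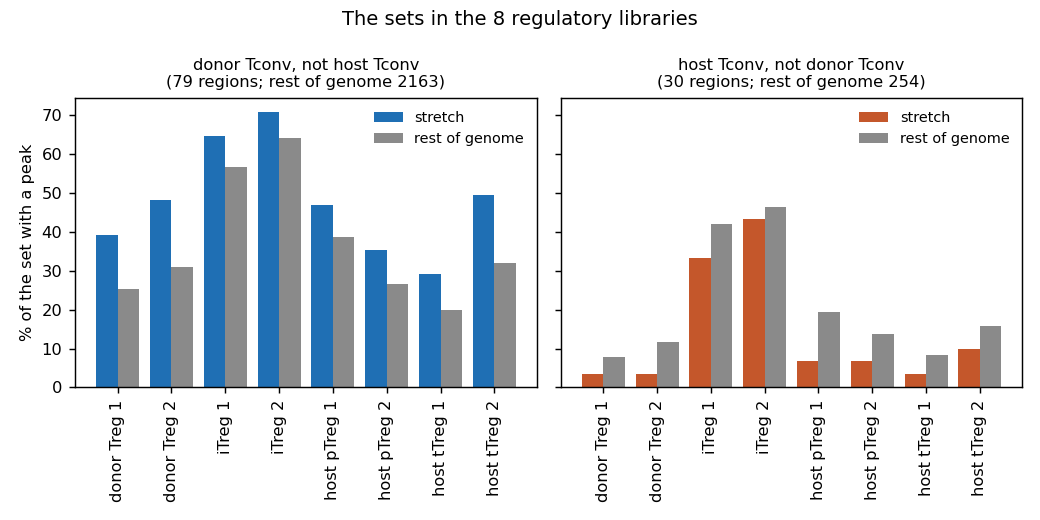
Bars give the percent of each set with a peak in each of the 8 regulatory libraries, coloured for the stretch and grey for the same set in the rest of the genome. Coloured bars exceed grey bars in all 8 libraries for the 79 donor Tconv regions and fall below them in all 8 for the 30 host Tconv regions.

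When CD45 label alone was used, no region separated the libraries completely. Of 1555 regions, 0 had a peak in all 6 libraries labelled for CD45.2 alone (donor Tconv, donor Treg, iTreg) and none of the 6 host libraries, and 0 had the reverse; over the genome 22 (0.0286%) and 1 (0.0013%) did. These are counts with no test. Host pTreg and host tTreg are labelled for both alleles, so a region tied to CD45.2 could have a peak in them too. The counts therefore cannot decide whether regions follow the allele. At genome-wide shares this low, 0 among 1555 regions is no result about the stretch. Leaving out 1 library gave at most 2 and 1. Within run code BW13, where the 4 donor libraries face host Tconv, 29 regions (2.67%, genome 0.943%) had a peak in all 4 donor and no host library, and 28 (2.57%, genome 0.469%) had the reverse.

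A grouping chosen after these values were seen set host Tconv against all other 10 libraries. In it 10 regions (0.643%, genome 0.242%) had a peak everywhere except host Tconv, and 15 (0.965%, genome 0.147%) in host Tconv alone. The 10 lay at Thsd7b (chr1:129651248-129651929), Nav1 (chr1:135631350-135632145), Tnni1 (chr1:135793450-135794758), Nek7 (chr1:138627817-138628518), Lamc1 (chr1:153303398-153305236), Abl2 (chr1:156539832-156540149), Tnr (chr1:159805756-159806382) and Xcl1 (chr1:164975743-164976340), and at chr1:144086072-144086491 and chr1:154033989-154034755 with no gene within 50 kb. They had a median width of 692 bp, against 438 bp for all regions of the stretch. Regions of this kind in the rest of the genome were much the same, with 666.5 bp against 462 bp for all regions there. Xcl1 encodes a chemokine that draws cross-presenting dendritic cells; the Lamc1 region, in a laminin chain gene, was the widest. The 15 were those of Tor1aip2 and Rabgap1l above and 1 each at Cd55, a complement regulator, Zp3r, Fmod, Rnpep, Nek7, Dennd1b, Tor3a, Fam20b, 4930523C07Rik and Prdx6. Host pTreg and host tTreg, which carry the CD45.1 label too, went with the donor cells at these 25 regions by the way the regions were picked. Without host Tconv 2 the 10 became 20 (genome 0.954%), and without host Tconv 1 the 15 became 43 (genome 1.27%).

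Comparisons of the in vivo regulatory groups with host Tconv gave an excess on the regulatory side only. Donor Treg had 74 regions (7.68%, genome 4.18%) and host Tconv 121 (12.6%, genome 12.8%) in their comparison. Host pTreg had 88 (8.9%, genome 5.51%) and host Tconv 118 (11.9%, genome 11.5%). Host tTreg had 61 (6.11%, genome 3.86%) and host Tconv 141 (14.1%, genome 15.2%). The regulatory side was above its genome-wide share each time and the host Tconv side close to it. On the rest of chromosome 1 the regulatory shares, in the same order, were 5.19, 6.79 and 5.01%, also above the genome-wide ones. With donor Tconv as the conventional side, host pTreg had 58 (5.71%, genome 3.62%) against 180 (17.7%, genome 17.7%) and host tTreg 38 (3.7%, genome 2.43%) against 207 (20.2%, genome 22.2%). The regulatory side was thus above its genome-wide share with either conventional group. The lists share their conventional libraries, so these are not separate results.

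Cell state with the CD45 allele held constant gave a larger number of differing regions, as it did elsewhere. Between donor Treg and donor Tconv, 41 of 991 regions (4.14%, genome 2.41%) had a peak in both Treg libraries alone and 185 (18.7%, genome 19.9%) in both Tconv libraries alone. The donor Tconv lists held 47193 and 44350 peaks and the donor Treg lists 32234 and 34467. Regulatory groups of different origin differed little: donor Treg against host pTreg gave 18 (2.26%, genome 2.09%) and 34 (4.26%, genome 4.33%), and donor Treg against host tTreg gave 18 (2.33%, genome 3.53%) and 7 (0.904%, genome 1.4%). Host pTreg against host tTreg gave 21 (2.63%, genome 3.35%) and 5 (0.627%, genome 0.452%). Shares near or below the genome-wide ones in these 3 comparisons contrast with the donor and host Tconv pair; whether the excess itself differs between them was not tested. Donor Treg and iTreg, which differ in culture, differed at 64 (4.63%, genome 2.92%) and 479 regions (34.7%, genome 34.7%). The long iTreg lists gave 332 regions over donor Tconv (23.2%, genome 21.4%) against 84 (5.87%, genome 5.63%), and 393 over host Tconv (27.5%, genome 24.6%) against 68 (4.76%, genome 3.53%).

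Regulatory and conventional libraries, 8 against 4, allowed a test per region over the whole genome, which counted the 2 libraries of a group as independent. With a two-sided version of Fisher's exact test and Benjamini-Hochberg adjustment at 0.05, 9 of 428 testable regions (2.1%) had a peak more often in regulatory libraries, where 1.39% of all 18887 did, and 13 (3.04%) in conventional libraries, where 4.98% did. All 22 were complete separations, with an exact p of 0.00202 and an adjusted p of 0.0317; at an unadjusted 0.05 the counts were 20 and 39. The 9 included 2 at Nr5a2 (chr1:136858580-136859129 and chr1:136859513-136860112), a nuclear receptor gene, and 1 each at Ier5 (chr1:155108508-155108876), an immediate early gene, Slc35f5, Nucks1, Lrrn2, Kif14 and Tnr. The 13 were 2 at Cxcr4 (chr1:128601071-128601790 and chr1:128602121-128603413), the receptor that holds cells in bone marrow through CXCL12, 2 at Actr3, 1 each at Selp (chr1:164144766-164145053), the P-selectin gene, Mfsd4a, Atp6v1g3, 1700025G04Rik and Ralgps2, and 4 with no gene. No call was left when any 1 library other than host Tconv 1, iTreg 1 or iTreg 2 was left out, and without both iTreg libraries there were 18 and 55 calls (genome 3.36% and 21.4%). Because every called region was a complete separation, each also split donor Treg from both Tconv groups within run code BW13. For the same reason the longest lists, those of iTreg, stood on the regulatory side with the shortest. Neither is a separate result, and the part of run code and list length was not tested.

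A second readout of the same lists was the number of bases of a region covered by peaks, taken over the 366 regions with a peak in all 12 libraries. Host Tconv coverage was compared with donor Tconv after centring on the median of the rest of the genome (-0.086 on the log2 scale), and a change past 1.5-fold was counted. Of the 366 regions 25 (6.83%) passed, where 2.83% of 21069 regions did in the rest of the genome and 2.16% on the rest of chromosome 1. In the stretch 18 were narrower in host Tconv and 7 wider, and in the rest of the genome 504 were narrower and 93 wider, so most were narrower in both. Other pairings were nearer their values elsewhere: donor Treg against host pTreg gave 7.1% (elsewhere 4.59%), donor Treg against host tTreg 4.92% (5.31%), host pTreg against host tTreg 2.73% (3.75%) and donor Treg against donor Tconv 11.7% (9.32%).

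The narrower regions lay at genes of many kinds, among them Cacna1e, Tnr, Dpt, Nav1, Dars and Stx6. At Cxcr4 (chr1:128548416-128550029) coverage was 1142 and 1040 bp in donor Tconv and 369 and 858 bp in host Tconv. At Tnfsf4, which encodes OX40 ligand (chr1:161395070-161397086), it was 1490 and 1460 bp against 633 and 995 bp. Host Tconv 1, the shorter list, was the lower both times. One region inside Ptprc (chr1:138136141-138138478) had 2237 and 1190 bp against 688 and 1100 bp. Donor and host values did not overlap at Cxcr4, Tnfsf4 and Ptprc. These regions were picked for their difference, so that is no separate result. At others past the limit, such as those at Mapkapk2 and Cd55, values overlapped. Wider in host Tconv were regions at Mdm4, an inhibitor of p53 (chr1:133023884-133026308; 871 and 820 bp in donor, 1170 and 1405 bp in host), and Nek7 (chr1:138584563-138585998; 504 and 465 bp in donor, 687 and 1384 bp in host).

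**Figure D5:**
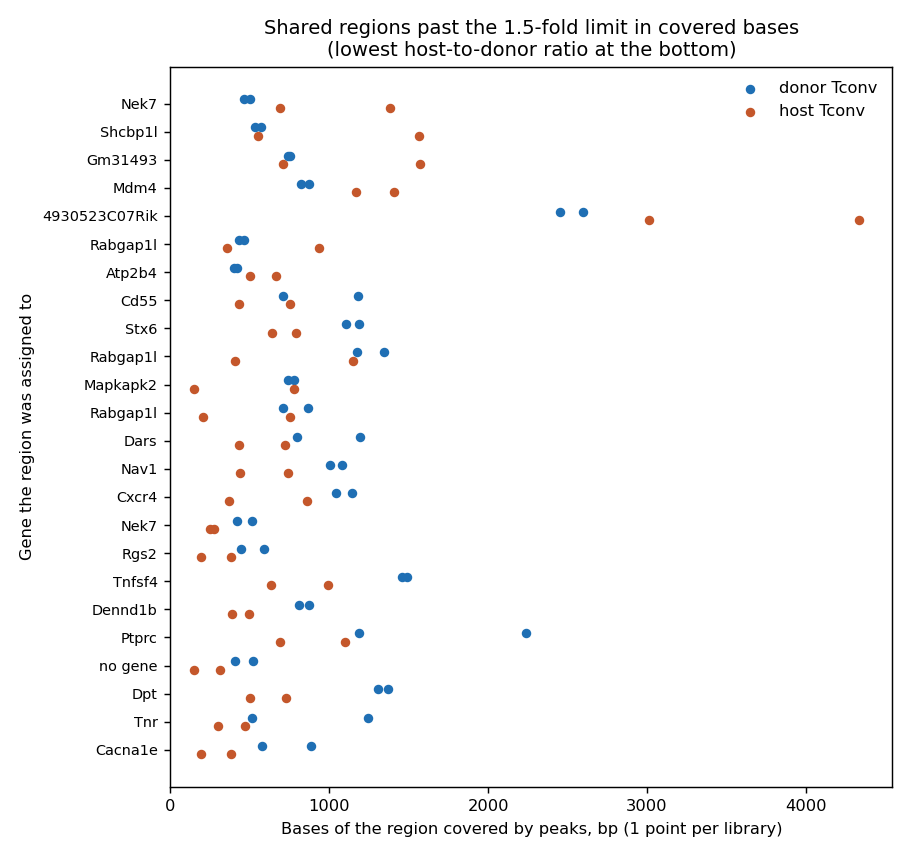
Regions in all 12 libraries whose peak coverage differed past 1.5-fold between donor and host Tconv (24 of the 25), by assigned gene; each point is the covered length in bp in 1 library, blue for donor and orange for host Tconv. By their mean, host points lie to the left in 17 of these regions and to the right in 7, and host Tconv 1 is often the lowest.

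Genes of T cell biology in the stretch were read from lists of 45 genes, chosen with earlier results of these libraries known. Of these, 44 had a region, Il20 being the exception, with 346 regions of which 108 were in all 12 libraries. Of the 346, 15 were donor-only and 5 host-only between the Tconv groups, beside 64 and 30 of the 1364 regions assigned to any gene of the stretch. The chemokine receptor, adhesion and migration list had 65 regions over 10 genes, 5 donor-only (Rgs2, Rgs18 and the E-selectin gene Sele) and 0 host-only. Cytokines, ligands and receptors had 66 regions over 11 genes, 4 donor-only (Fcmr, Tnfsf4, Xcl1) and 1 host-only (Cd55). Signalling, RNA and transcription genes had 191 regions over 21 genes, 5 donor-only (Btg2, Abl2, Rabgap1l, Dennd1b) and 4 host-only (Abl2, Rabgap1l, Dennd1b).

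Several genes of these lists had no donor-only or host-only region, though at Il10 and Rgs1 the donor Tconv counts lay above the host Tconv counts. Il10, the gene of an anti-inflammatory cytokine, had 10 regions, with a peak in 8 and 8 in donor Tconv, 7 and 7 in host Tconv, 6 and 8 in donor Treg, 7 in each host regulatory library and 6 and 7 in iTreg. Fasl, which encodes the ligand of the death receptor Fas, had 12 regions, with 12 and 11 in donor Tconv, 12 and 12 in host Tconv, and 8 to 11 in regulatory libraries. Rgs1, a brake on chemokine receptor signalling, had 11 regions, with 5 and 5 in donor Tconv, 4 and 4 in host Tconv, 5 and 6 in donor Treg, 9 and 9 in iTreg, 8 and 9 in host pTreg and 6 and 8 in host tTreg. Counts at Rgs1 were thus higher in host regulatory and iTreg libraries than in either Tconv group. Zfp281, a zinc finger transcription factor 1.43 Mb from Ptprc, had 10 regions and 8 to 10 with a peak in every library. Between donor Treg and donor Tconv the lists had 9 regions in Treg alone, 2 of them at Nr5a2 and 2 at Mgat5, a glycosyltransferase, and 35 in Tconv alone. Of 44 genes, 2 had more of the first kind and 26 more of the second, where the genes of the stretch together had 16 and 102 of 235.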

How the data were processed

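The genome build mm10 and the tools bedtools, HOMER 4.10 and Bowtie2 2.3.3 are named per the submitters' processing notes; what each did, transposase shift and read depth were not given in the sources used here. The authors deposited 12 peak lists, whose coordinates were used; the deposited score is 1000 for every peak and ranks nothing. Lists held 28394 to 63207 peaks of at least 150 bp.

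Peaks sharing at least 1 bp were merged, and a region counted as present in a library with any peak there. Coordinates are 1-based, with list starts read as counted from 0. Genes and start sites came from RefSeq (GRCm38.p6); a region went to the protein-coding gene around its midpoint or, failing that, to the closest gene end up to 50 kb away, which assigned 1364 regions (87.7%).

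Groups and replicate numbers came from the sample titles. A region separated 2 groups if both libraries of one and neither of the other had a peak; 2 against 2 cannot go below an exact p of 0.333, so no p is given. Regulatory and conventional libraries, 8 against 4, were compared per region with Fisher's exact test, two-sided, and Benjamini-Hochberg adjustment at 0.05 over all regions of the genome able to reach an unadjusted 0.05; the procedure was tested on simulated data. The test counts each library as independent, although the 2 of a group share their sort and origin, so its p-values may be too small. Labels do not say whether replicates are separate animals, and differences between them may be technical. Genes named are those of the fixed lists, the 10 with most regions in each direction between donor and host Tconv, and those at the regions called by the test. Genes at the regions that set host Tconv apart from all others, at the examples of coverage and at Sec16b and the start-site windows were picked after their values were seen; some items are not reported here. The stretch, the lists and the tests were chosen with earlier results of these data known. Alternatives are given with their effects under the processing results. Python 3.11.15, NumPy 2.4.6, pandas 2.3.3, SciPy 1.17.1 and matplotlib 3.10.9 were used.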

Additional observations from a re-analysis of the deposited data

How the results depend on the processing

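The share of regions separating donor from host Tconv was above the genome-wide share in both directions under every setting tried, while counts moved with the lists. With lists of equal length there were 28 donor-only regions, and 75 and 58 between donor Treg and donor Tconv in the Treg and Tconv direction. The same setting gave 3 regions in all but host Tconv, 38 between donor Treg and host tTreg and 223 between donor Treg and iTreg. Of the donor Tconv set 78.6% and of the host Tconv set 28.0% then had a peak in a host regulatory library (elsewhere 62.9 and 50.0%). Peaks of at least 300 bp gave 37 donor-only and 13 host-only regions, 19 for donor Treg over donor Tconv, 2 for the CD45.2 libraries against the host libraries, 2 in all but host Tconv and 8 in host Tconv alone. They also gave 128 and 124 regions for host pTreg and host tTreg against host Tconv, and 1 call higher in regulatory libraries. With 25% coverage 1 region followed the CD45.2 label. Moving the bounds gave 16 regions between donor Treg and host tTreg, 17 between the host regulatory groups, and 6 calls higher in conventional libraries. Run code BW13 alone gave 29 and 28 regions in place of 0 and 0 for the CD45 label, and host Tconv against all other libraries, chosen after seeing the data, gave 10 and 15. Without the iTreg libraries 18 and 55 regions were called. The cause of these shifts was not tested. Merging over 500 bp changed no count by more than 1.5 times.

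Leaving out 1 library at a time gave 79 to 182 donor-only and 30 to 82 host-only regions, 41 to 70 and 185 to 276 between donor Treg and donor Tconv, 0 to 2 and 0 to 1 for the CD45 label, and 10 to 20 and 15 to 43 for host Tconv against the rest. Pairs of groups ranged from 52 to 126 (donor Treg, host pTreg), 25 to 101 (donor Treg, host tTreg), 26 to 112 (host pTreg, host tTreg), 206 to 343 (host pTreg, host Tconv), 202 to 344 (host tTreg, host Tconv) and 543 to 702 (donor Treg, iTreg). Calls by Fisher's exact test ranged from 0 to 10 in regulatory and 0 to 21 in conventional libraries; with fewer libraries the smallest p is larger. The donor Tconv set had 43.5 to 55.8% and the host Tconv set 10.0 to 22.2% in a host regulatory library.

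With the replicate number as a block, the exact stratified test called 0 regions in either direction, with 20 and 39 at an unadjusted 0.05. Equal numbers did not pair the libraries: over 15 pairs of groups the correlation of their deviations ran from -0.131 to 0.0567, with 0 above 0.1.

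Depth behind the lists is unknown, so differences in how many peaks a library yielded limit every count, and all differences between donor and host Tconv rest on 2 libraries a side.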
